A study of Homo sapiens with 12 samples.

Results

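The ADP/ATP translocases SLC25A4, SLC25A5 and SLC25A6, the mitochondrial phosphate carrier SLC25A3 and the voltage-dependent anion channels VDAC1, VDAC2 and VDAC3 were followed across 12 polyadenylated RNA libraries of HEK293T cells, a human embryonic kidney line that carries the SV40 large T antigen. These 7 genes were taken by symbol from the 34318 genes of the table. They were chosen by the siRNA values of SLC25A6, already known to be low in the siPOLR3A libraries, so the siRNA values of the 7 genes are given as a description, without a test. The ML60218 comparison played no part in the choice and was tested.

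In the siRNA experiment, HEK293T cells were transfected with a control siRNA (siControl, 3 libraries) or with an siRNA against POLR3A (siPOLR3A, 3 libraries) and were collected after 2 days. POLR3A encodes the largest subunit of RNA polymerase III, the enzyme that makes tRNAs and 5S ribosomal RNA. In the inhibitor experiment, HEK293T cells received 0.1% DMSO as vehicle (3 libraries) or 25 µM ML60218, a small-molecule inhibitor of RNA polymerase III (3 libraries), and were collected after 4 hours. The labels give HEK293T as the cell line of all 4 groups, with no engineered change, but the sample titles of the inhibitor experiment say 293 where those of the siRNA experiment say Hek293T. The labels do not say whether the replicates were separate cultures, so p-values may measure technical spread alone.

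The libraries held 37008325 to 49479476 estimated reads, and the 7 genes took 0.2% to 0.229% of the reads on transcripts matched to a gene. POLR3A itself had a normalised level of 90.8 ± 3.56 CPM (counts per 1000000 counts of the TMM-scaled library, mean ± SD, n = 3) in siControl and 17.6 ± 2.65 in siPOLR3A. In the inhibitor experiment it had 112.6 ± 4.99 CPM in DMSO and 86.45 ± 2.20 in ML60218, without overlap. The 7 genes fixed as HEK293T markers summed to 1065 to 1097 CPM in siControl and 637 to 654 in siPOLR3A, without overlap. Their sums were 872 to 893 CPM in DMSO and 928 to 946 in ML60218. In each group 6 or 7 of them reached 1 CPM. Of 6 markers of differentiated kidney epithelium 1 reached 1 CPM in each group, although the labels give the cells as kidney epithelial. This list summed to 56.0 to 65.9 CPM in siControl, 68.8 to 74.7 in siPOLR3A, 21.6 to 25.1 in DMSO and 24.45 to 27.6 in ML60218. Blood markers summed to at most 0.0259 CPM and endothelial markers to at most 0.337 CPM. Fibroblast markers, of which 2 of 4 reached 1 CPM in each group, summed to 38.9 to 40.1 CPM in siControl, 39.9 to 43.0 in siPOLR3A, 28.5 to 30.2 in DMSO and 26.1 to 29.6 in ML60218. Whether the marker levels bear on the values below was not tested.

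The ADP/ATP translocases sit in the inner mitochondrial membrane and exchange cytosolic ADP for ATP made in the matrix, and SLC25A3 brings in the phosphate that ATP synthase needs. The VDACs form the main pore of the outer membrane, through which ATP, ADP, phosphate and other metabolites pass between cytosol and intermembrane space. SLC25A4 is the form typical of heart and skeletal muscle, SLC25A5 that of dividing cells, and SLC25A6 is made in most tissues.

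In GRCh38 (GENCODE release 29), SLC25A6 (ENSG00000169100) lies on the minus strand at chrX:1386152-1392724, in the pseudoautosomal region shared by X and Y. SLC25A5 (ENSG00000005022) is on the plus strand at chrX:119468400-119471319 and SLC25A4 (ENSG00000151729) on the plus strand at chr4:185143241-185150382. SLC25A3 (ENSG00000075415) spans chr12:98593591-98606379 on the plus strand. VDAC1 (ENSG00000213585) spans chr5:133971915-134005133 on the minus strand and VDAC2 (ENSG00000165637) chr10:75210154-75231448 on the plus strand. VDAC3 is ENSG00000078668.

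The coding sequences of the 3 translocases are each 897 bases long, with a start and a stop codon. Position by position, SLC25A5 and SLC25A6 were identical at 78.8% of bases, SLC25A4 and SLC25A6 at 77.9%, and SLC25A4 and SLC25A5 at 77.3%. The starts of the coding sequences are shown because they let a reader see how far reads from one paralog can be told from another. They are bases 1 to 120 from the ATG in GENCODE release 29 (GRCh38), 5′ to 3′, with capitals at the 34 positions that are not the same in all 3:
SLC25A4: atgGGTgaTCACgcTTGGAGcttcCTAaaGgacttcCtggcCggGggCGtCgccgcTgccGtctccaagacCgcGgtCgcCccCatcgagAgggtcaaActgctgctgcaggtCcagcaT
SLC25A5: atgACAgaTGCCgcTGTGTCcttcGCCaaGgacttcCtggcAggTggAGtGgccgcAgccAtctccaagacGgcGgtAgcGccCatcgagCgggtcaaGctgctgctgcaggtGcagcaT
SLC25A6: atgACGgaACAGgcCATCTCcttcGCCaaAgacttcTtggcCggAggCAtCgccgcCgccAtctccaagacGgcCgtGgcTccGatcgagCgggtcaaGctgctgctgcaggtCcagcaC
The differences form runs of several bases near the start. Further on they are mostly single bases, many at the third base of a codon. The longest run shared by the full transcripts was 29 bases between SLC25A5 and SLC25A6, 20 bases between SLC25A4 and SLC25A6 and 14 bases between SLC25A4 and SLC25A5, against reads of 151 bases from both fragment ends. Among the VDACs the longest shared run was 17 bases, between VDAC2 and VDAC3, and the coding sequences of VDAC1 and VDAC3, both 852 bases, were identical at 66.1% of positions.

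Processed pseudogenes are a further source of shared reads. The table listed 9 for SLC25A5, 6 for SLC25A6, 2 for SLC25A3, 13 for VDAC1, 4 for VDAC2, 1 for VDAC3 and 0 for SLC25A4. Their estimated reads came to at most 0.0676% of those of the parent gene, apart from VDAC1, where they came to 2.01%. Of the 4534 reads on VDAC1 pseudogenes in the 12 libraries, 4496 were on VDAC1P8. How reads were divided between parent and pseudogene was set by the authors' estimate.

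Levels were compared between genes in the deposited TPM, a share of all transcripts in the library that is scaled by transcript length. SLC25A3 and SLC25A5 were the most abundant, at 779 ± 20.5 and 770.2 ± 39.6 TPM (SD, n = 3) in siControl, and their libraries overlapped there. Below them in siControl came VDAC1 at 405 ± 7.82 TPM, SLC25A6 at 290.3 ± 6.12, VDAC2 at 244 ± 12.7 and VDAC3 at 206 ± 9.45, with no overlap between neighbours. SLC25A4 was the lowest, at 21.7 ± 1.75 TPM.

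In DMSO the order began with SLC25A5 at 868 ± 22.5 TPM and SLC25A3 at 763 ± 29.3, which did not overlap. VDAC1 followed at 357 ± 9.28 TPM. SLC25A6 at 275 ± 12.2 and VDAC2 at 273 ± 5.55 TPM could not be separated, and VDAC3 at 234 ± 7.31 and SLC25A4 at 23.0 ± 1.246 TPM were below them. ML60218 libraries had the same order, with SLC25A6 and VDAC2 again overlapping. In siPOLR3A, SLC25A3 stood above SLC25A5 without overlap, and SLC25A6 was in the sixth place, between VDAC3 and SLC25A4, rather than in the fourth as in the other groups.

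**Figure D1:**
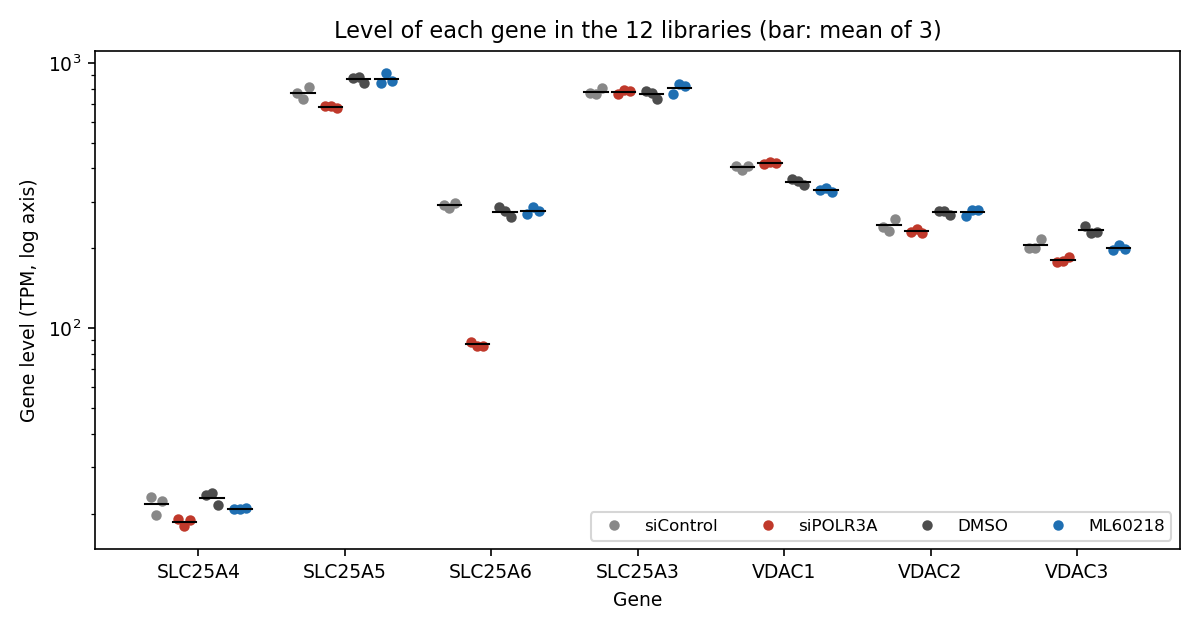
Level of each gene (TPM, log axis) in the 12 libraries, with 1 point per library, coloured by group, and a bar at the mean of 3. SLC25A6 lies between 85.7 and 89.1 TPM in siPOLR3A and between 262 and 296 TPM in the other 9 libraries, while the other 6 genes differ by less between the groups.

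SLC25A6, the ubiquitous ADP/ATP translocase, had 257.5, 265 and 267 CPM in the siControl libraries and 78.9, 76.4 and 76.8 CPM in the siPOLR3A libraries. The groups were far apart, and each group's spread was small against the gap. The means were 263 ± 5.12 and 77.4 ± 1.3 CPM, a log2 difference of −1.77 (SE 0.027), or 3.4-fold lower. These values led to the choice of the 7 genes and are given as a description.

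SLC25A5, the paralog with the most RNA here, had 553.1, 553.1 and 587 CPM in siControl and 496, 503 and 493 CPM in siPOLR3A. All siPOLR3A libraries lay below all siControl libraries, by far less than for SLC25A6, with a log2 difference of −0.18 (SE 0.026). SLC25A4, the muscle form, had 32.2, 30.9 and 32.1 CPM in siControl and 27.8, 26.5 and 28.5 CPM in siPOLR3A, a log2 difference of −0.20 (SE 0.045), again with no overlap. Neither paralog was higher where SLC25A6 was low.

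SLC25A3, the phosphate carrier, had 429, 444 and 446 CPM in siControl and 429, 439 and 435 CPM in siPOLR3A. The groups overlapped, and the log2 difference of −0.02 (SE 0.023) was smaller than its error. On the TPM scale its group means were 779 and 780.1.

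Of the VDACs, VDAC3 had 191, 199.7 and 210.2 CPM in siControl and 172, 175 and 178 CPM in siPOLR3A, a log2 difference of −0.20 (SE 0.032). VDAC2, the form known to hold the cell death protein BAK at the outer membrane, differed by −0.10 (SE 0.028), from 232 ± 8.14 to 216 ± 4.21 CPM. VDAC1, the best studied of the channels and a docking site for hexokinase, was slightly the other way, at 542 ± 6.83 CPM in siControl and 552 ± 4.57 in siPOLR3A, a log2 difference of 0.03 (SE 0.021). On the CPM scale the groups were free of overlap for all 3 VDACs, but on the TPM scale those of VDAC2 overlapped.

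Over the 7 genes, groups did not overlap in CPM for 6, of which 5 were lower in siPOLR3A. Among all 15404 genes tested in this comparison, groups were free of overlap for 63.4%, and for 32.4% with siPOLR3A lower. The median log2 difference was −0.18 over the 7 genes and 0.005 over all genes tested. The small values moved with the processing: over 19 alternatives VDAC2 lay between −0.12 and −0.04, VDAC1 between 0.02 and 0.09, VDAC3 between −0.22 and −0.13, SLC25A4 between −0.24 and −0.14 and SLC25A5 between −0.20 and −0.12. Since the siRNA values led to the choice, nothing is read from these counts. In bulk RNA, a smaller number of cells with a transcript and less of it per cell cannot be told apart.

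**Figure D2:**
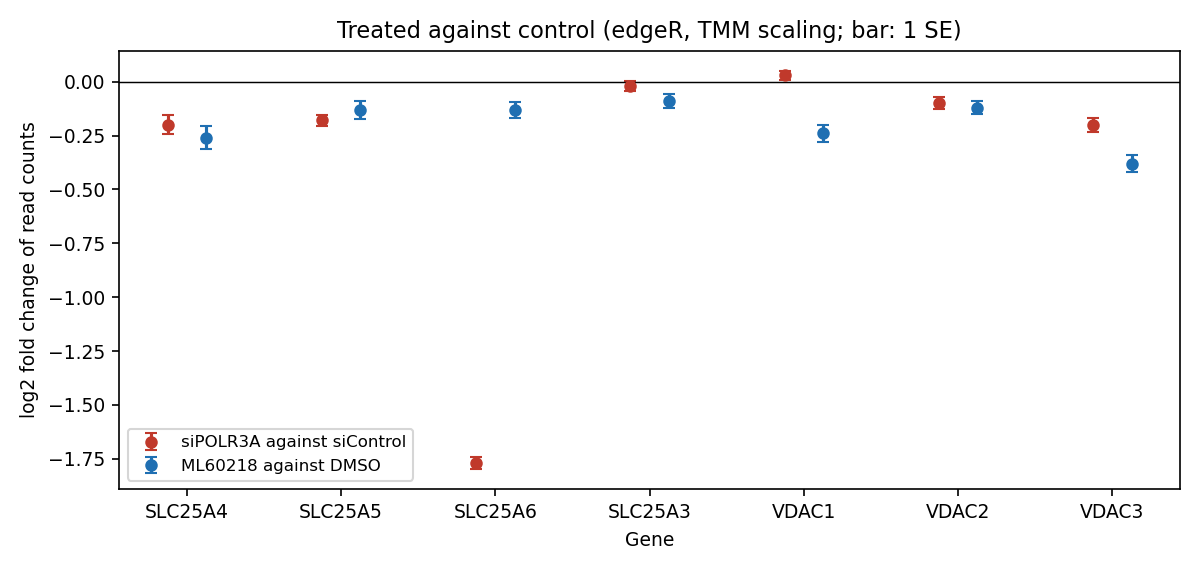
log2 fold change of read counts for each gene, siPOLR3A against siControl in red and ML60218 against DMSO in blue, each from 3 against 3 libraries, with bars of 1 SE. SLC25A6 stands at −1.77 in the siRNA comparison, and all other points lie between −0.38 and 0.03.

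With SLC25A6 low, the make-up of the summed translocase RNA (SLC25A4, SLC25A5 and SLC25A6 only) differed between the siRNA groups. The shares rest on the values that led to the choice of genes, and they say nothing of protein. SLC25A6 made up 26.8% ± 0.609 of the summed translocase TPM in siControl and 11.0% ± 0.201 in siPOLR3A. SLC25A5 made up 71.2% ± 0.596 and 86.6% ± 0.275, and SLC25A4 2.01% ± 0.113 and 2.36% ± 0.0886. SLC25A5 therefore took a larger share at a lower level, since the sum went from 1082 ± 46.9 to 790.5 ± 6.77 TPM.

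Within each library the log2 ratio of SLC25A6 to SLC25A5 TPM was −1.40, −1.37 and −1.45 in siControl and −2.95, −3.01 and −2.98 in siPOLR3A. The ratio of SLC25A5 to SLC25A4 was 5.15 ± 0.081 and 5.20 ± 0.059 on the log2 scale, and its groups overlapped. SLC25A5 and SLC25A4 thus kept their ratio to each other within the spread of the libraries.

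Among the VDACs, VDAC1 made up 47.4% ± 0.943 of the summed VDAC TPM in siControl and 50.4% ± 0.0676 in siPOLR3A. VDAC3 made up 24.1% ± 0.484 and 21.7% ± 0.432, and VDAC2 28.5% ± 0.559 and 27.9% ± 0.398. Their sum was 856 ± 27.6 TPM in siControl and 830.4 ± 6.33 in siPOLR3A.

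**Figure D3:**
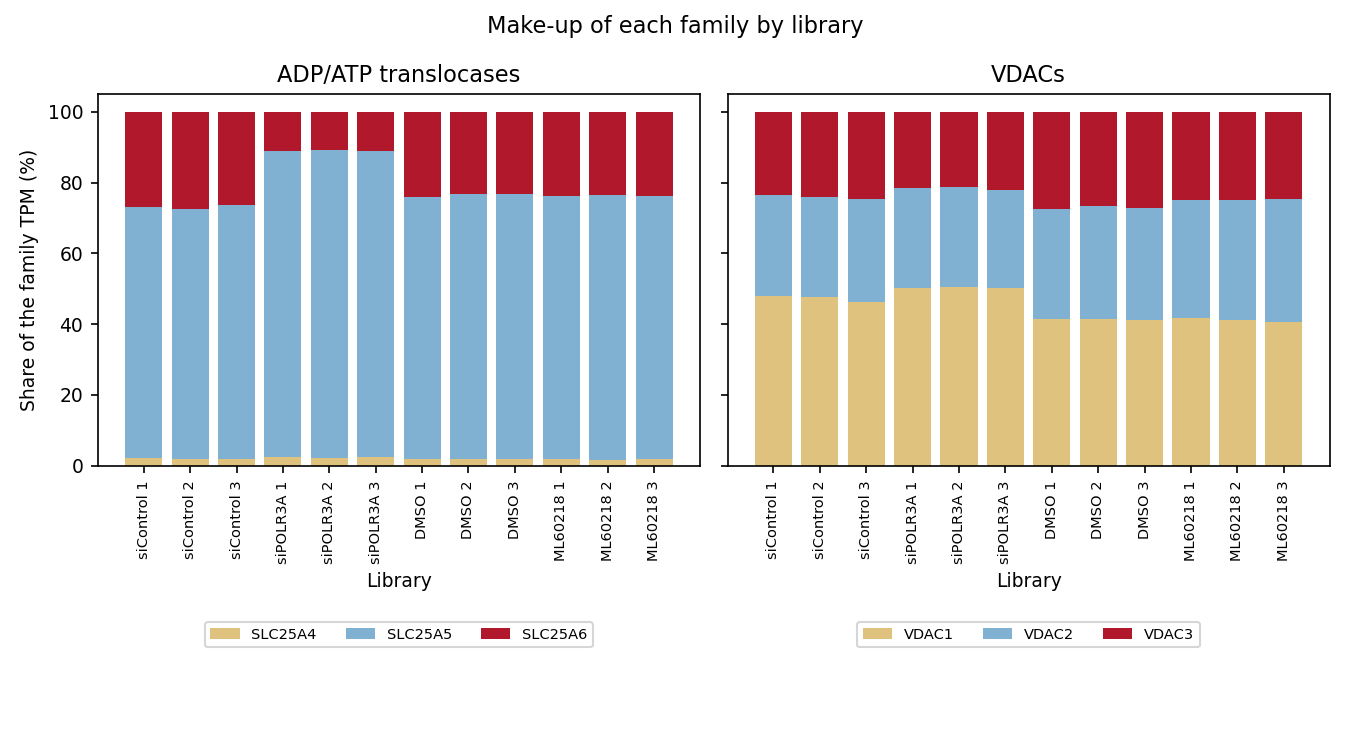
Share of each gene in the summed TPM of the ADP/ATP translocases (left) and of the VDACs (right), in percent, with 1 stacked bar per library. In the 3 siPOLR3A libraries SLC25A6 makes up 10.8% to 11.2% of the translocases, against 26.2% to 27.4% in siControl and 23.3% to 24.1% in DMSO.

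The transcript estimates show where the SLC25A6 difference lies. SLC25A6-201, the protein-coding transcript, held 97.1% to 99.5% of the gene's TPM over the 12 libraries, with 289, 282 and 293 TPM in siControl and 86.8, 83.2 and 83.6 TPM in siPOLR3A. The processed transcript SLC25A6-202 had 17, 8 and 25 estimated reads in siControl and 33, 27 and 21 in siPOLR3A, and 19, 33 and 10 in DMSO against 40, 64 and 87 in ML60218. SLC25A6-202 was therefore not lower in siPOLR3A. The other processed transcript, SLC25A6-203, had 16, 22 and 20 estimated reads in siControl and 6, 14 and 17 in siPOLR3A, with overlap. Counts of both were too small to carry the gene's level.

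SLC25A5-201 likewise held 98.3% to 99.2% of SLC25A5 TPM. SLC25A4 was different, since 81.4% to 86.6% of its TPM was assigned to SLC25A4-202, which the annotation lists as a nonsense-mediated decay transcript. The protein-coding SLC25A4-201 was estimated at 3.46 ± 0.0984 TPM in siControl and 3.3 ± 0.224 in siPOLR3A, against 18.3 ± 1.84 and 15.4 ± 0.492 for SLC25A4-202. The lower SLC25A4 level in siPOLR3A was thus found mainly in SLC25A4-202.

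SLC25A3 TPM was divided between SLC25A3-212, with 40.7% to 44.4%, and the shorter SLC25A3-206, with 39.6% to 43.4%. VDAC1-203 held 67.4% to 71.3% of VDAC1 TPM and VDAC1-202 24.9% to 29.02%. VDAC2-203 held 76.3% to 84.9% of VDAC2 TPM and VDAC3-201 79.25% to 86.1% of VDAC3 TPM.

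ML60218 for 4 hours was tested against DMSO with edgeR's quasi-likelihood test, with p adjusted over all 15461 genes tested (Benjamini-Hochberg). All 7 genes were called lower at an adjusted p under 0.05, and none of their groups overlapped in CPM. Of all genes tested, 39% were called, 20.9% as lower, and 51.9% had groups free of overlap, 27% with ML60218 lower. The median log2 fold change was −0.13 over the 7 genes and 0.005 over all genes. The falls were small, at most 1.3-fold, and on the TPM scale VDAC3 alone kept its call.

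VDAC3 changed most. It had 235, 231 and 235.0 CPM in DMSO and 183, 188 and 168 CPM in ML60218. Every ML60218 library lay well below every DMSO library. VDAC3 fell by 0.38 on the log2 scale (−0.38, SE 0.041, edgeR adjusted p = 0.000235), and over 19 alternatives it lay between −0.44 and −0.22 with adjusted p from 4.89e-14 to 0.0074, so the call was kept in all 19.

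VDAC1 had 465, 469 and 469 CPM in DMSO and 414, 405 and 371 CPM in ML60218. The third ML60218 library was the lowest, and the groups did not overlap. VDAC1 fell by 0.24 on the log2 scale (−0.24, SE 0.041, edgeR adjusted p = 0.00183, range over the alternatives 9.62e-07 to 0.0829), and the call was kept in 17 of 19 alternatives. VDAC2 had 249.2, 249.3 and 248 CPM in DMSO and 231, 235 and 221 CPM in ML60218, a log2 fold change of −0.12 (SE 0.032, edgeR adjusted p = 0.0151, range 0.00252 to 0.922), with the call kept in 12 of 19.

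Of the translocases, SLC25A4 had 32.5, 33.0 and 31.0 CPM in DMSO and 27.3, 28.0 and 25.7 CPM in ML60218. SLC25A4 fell by 0.26 on the log2 scale (−0.26, SE 0.052, edgeR adjusted p = 0.00405, range 0.000482 to 0.165), with the call kept in 17 of 19 alternatives.

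SLC25A6 had 245, 239 and 235 CPM in DMSO and 224, 225.5 and 209 CPM in ML60218, a log2 fold change of −0.13 (SE 0.037, edgeR adjusted p = 0.0203, range 0.00358 to 0.857). SLC25A5 had 615, 625 and 620.0 CPM in DMSO and 576, 597 and 532 CPM in ML60218, also −0.13 (SE 0.042, edgeR adjusted p = 0.0368, range 0.0099 to 0.943). SLC25A3 had 435, 437 and 432 CPM in DMSO and 411, 419 and 391.5 CPM in ML60218, a log2 fold change of −0.09 (SE 0.033, edgeR adjusted p = 0.0456, range 0.0126 to 0.547). The call was kept in 12 of 19 alternatives for SLC25A6, in 11 for SLC25A5 and in 7 for SLC25A3. SLC25A6 and SLC25A5 thus had nearly the same ML60218 effect, whereas their siRNA values were −1.77 and −0.18. The difference between the experiments was not tested, and agent and duration differ between them.

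The scale of the libraries touches these small falls. On the log2(TPM + 1) scale, tested with limma, the median of all genes stood at 0.107 rather than at 0.005, and SLC25A5, SLC25A6 and VDAC2 stood at 0.01 and SLC25A3 at 0.08, none of them called. In TPM, SLC25A5 had 868 in DMSO and 871 in ML60218, SLC25A6 275 and 277.0, VDAC2 273 and 275 and SLC25A3 763 and 804, with overlapping groups. VDAC3 (234 and 201 TPM), VDAC1 (357 and 332 TPM) and SLC25A4 (23.0 and 20.9 TPM) did not overlap on that scale either. In the limma test on log2(TPM + 1), VDAC3 stood at −0.22 (limma adjusted p = 0.0074), whereas VDAC1 at −0.10 (limma adjusted p = 0.0816) and SLC25A4 at −0.13 (limma adjusted p = 0.161) were not called. Scaling by total counts or by the upper quartile left the 3 calls for SLC25A4, VDAC1 and VDAC3. Leaving out DMSO replicate 1, 2 or 3 left 3, 3 and 4 of the 7 calls.

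**Figure D4:**
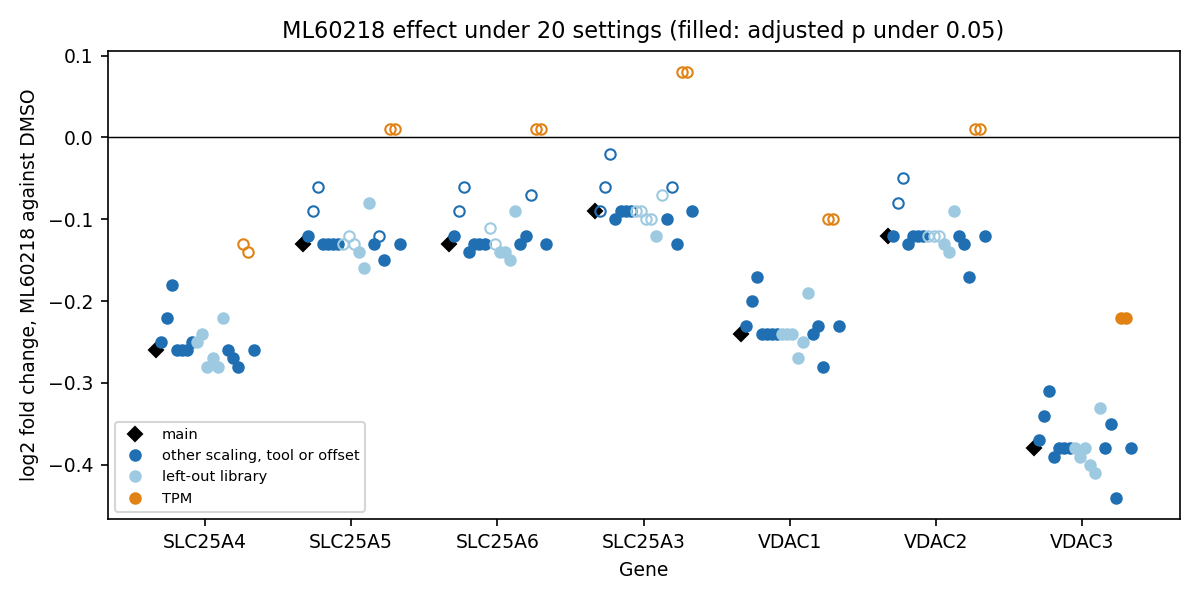
log2 fold change of each gene, ML60218 against DMSO, under 20 settings: the main one (black diamond), other scalings, tools and offsets (dark blue), each library left out (light blue) and TPM (orange), filled where the adjusted p is under 0.05. VDAC3 is filled in every setting, from −0.44 to −0.22, while SLC25A5, SLC25A6, SLC25A3 and VDAC2 reach or pass 0 on the TPM scale.

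Ratios within a library do not depend on its scaling. The log2 ratio of VDAC3 to VDAC2 TPM was −0.18, −0.28 and −0.21 in DMSO and −0.42, −0.45 and −0.49 in ML60218, and that of VDAC3 to VDAC1 was −0.61 ± 0.034 and −0.73 ± 0.014, both free of overlap. VDAC3 was therefore lower relative to both other channels. The ratio of SLC25A6 to SLC25A5 was −1.66 ± 0.036 in DMSO and −1.65 ± 0.021 in ML60218, with overlap. Shares of the translocase sum were correspondingly close, at 23.6% ± 0.446 and 23.7% ± 0.247 for SLC25A6 and at 74.5% ± 0.454 and 74.5% ± 0.312 for SLC25A5. The VDAC3 share of the VDAC sum was 27.1% ± 0.530 in DMSO and 24.8% ± 0.144 in ML60218, and the VDAC2 share 31.6% ± 0.424 and 34.0% ± 0.642.

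The genes whose pattern was most like that of SLC25A6 were sought among 10287 protein-coding genes, by the root mean square difference in log2 CPM over the 12 libraries after subtracting each experiment's control mean. The nearest was DHRS7, a short-chain dehydrogenase/reductase, at 0.024. Next came NME1, a nucleoside diphosphate kinase, at 0.035, the fatty acid desaturases FADS1 at 0.053 and FADS2 at 0.058, and TMEM183A at 0.074. Their log2 differences in siPOLR3A ran from −1.84 (FADS1) to −1.64 (TMEM183A), and their values in ML60218 from −0.20 (FADS2) to −0.07 (FADS1).

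The paralogs were far from this pattern. SLC25A4 stood at 0.786, with 2690 candidates closer to SLC25A6, and SLC25A5 at 0.792, with 2839 closer. VDAC3 stood at 0.796, VDAC2 at 0.833, SLC25A3 at 0.874 and VDAC1 at 0.898. The 3 siPOLR3A libraries, which led to the choice of SLC25A6, enter this measure, so it is given as a description.

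**Figure D5:**
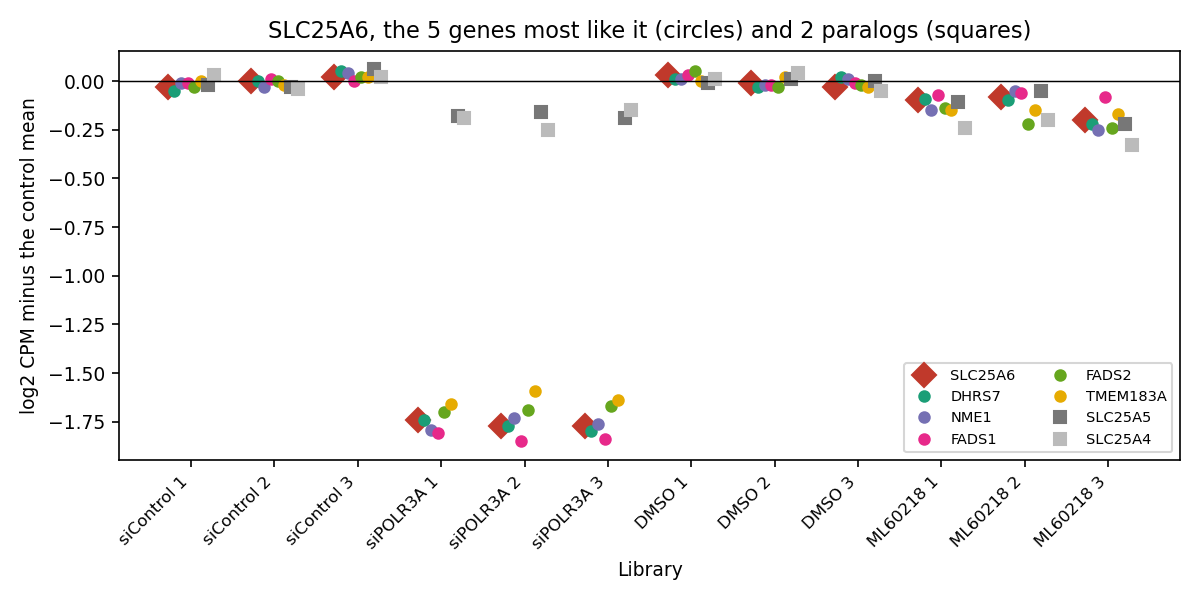
log2 CPM minus the mean of the control group of the same experiment, by library, for SLC25A6 (red diamonds), the 5 genes most like it (coloured circles) and the paralogs SLC25A5 and SLC25A4 (grey squares). In the siPOLR3A libraries SLC25A6 and the 5 genes, which were chosen for this likeness, lie between −1.85 (FADS1) and −1.59 (TMEM183A). The paralogs lie between −0.25 and −0.15 there.

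The word GAGGGA, picked after earlier results of these libraries were known, was looked for on the transcript strand of the GENCODE release 29 models. The windows are shown because SLC25A6 and SLC25A4 carry the word in the 3′ UTR and SLC25A5 does not. Each is 30 bases of GRCh38, 5′ to 3′, with the word in capitals:
SLC25A6, chrX:1386371-1386400, minus strand: atcacggggtggGAGGGAaccgtggcgtcc
SLC25A4, chr4:185148527-185148556, plus strand: atgaaatgggggGAGGGAgtggtaggagat
SLC25A4, chr4:185149347-185149376, plus strand: gcatggaatgggGAGGGAagaggcatggac
The 3′ UTR held 1 copy in SLC25A6 (450 bases of UTR), 2 in SLC25A4 (3411 bases), 1 in VDAC3 (435 bases) and 0 in SLC25A5, SLC25A3, VDAC1 and VDAC2. SLC25A3 and VDAC2 held 1 copy each elsewhere in the transcript. The word was in the 3′ UTR of 35.9% of 13131 genes scanned, of 17.4% of the 1317 with a UTR of about the length of that of SLC25A6 and of 58.9% of the 1537 with one of about the length of that of SLC25A4. DHRS7 (160 bases of UTR) and NME1 (350 bases) held 1 copy each, TMEM183A (1808 bases) 2, and FADS1 (2786 bases) and FADS2 (1665 bases) 4 each. These genes were chosen for a fall like that of SLC25A6 in the same libraries. Genes named from the lists below for their siRNA change were also scanned. Of those that rose, SLC25A22 (1440 bases) held 1 copy and ATP5F1D (389 bases), TIMM10B (2458 bases) and CKMT1A (133 bases) held 0. Of those that fell, PPIF (1495 bases) and SLC25A46 (1002 bases) held 1 each, TOMM40 (519 bases) 2 and MCU (1872 bases) 3. No share among genes of like UTR length was computed for any of these genes, so their copies cannot be set against the shares above. Whether the word bears on the siPOLR3A values was not tested. A match is a description of letters. The SLC25A4 copies were counted in SLC25A4-201, while most of the SLC25A4 TPM was assigned to SLC25A4-202, which was not scanned, so they cannot be set against the SLC25A4 gene level. The SLC25A6 model of GENCODE release 29 is 2062 bases long and the deposited table lists its transcript at 1451, so the window may lie outside the model the authors used.

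The 5 lists of other genes place the 7 genes among their functional neighbours. The largest was that of the other SLC25 carriers, the inner membrane family to which the translocases belong. After the siRNA, 42 of 48 could be tested, 9 rose and 14 fell, with a median log2 fold change of −0.05 against 0.005 for all genes, of which 56.6% were called, 27.4% as higher and 29.2% as lower (edgeR). SLC25A46, an outer membrane member of the family linked to mitochondrial shape, fell from 118 ± 3.09 to 51.4 ± 0.642 CPM (log2 −1.19, edgeR adjusted p = 8.2e-13). SLC25A22, a glutamate carrier, rose from 18.25 ± 0.599 to 29.5 ± 0.736 CPM (0.69, edgeR adjusted p = 3.2e-08).

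The ATP synthase subunits, which use the phosphate and ADP that the carriers bring in, had 1 of 18 tested higher and 11 lower after the siRNA, with a median of −0.12. Of all genes tested, 27.4% were called higher and 29.2% lower, with a median of 0.005. ATP5F1D, a subunit of the central stalk, rose (0.16, edgeR adjusted p = 0.00635). DMAC2L, listed here with the subunits, fell (−0.48, edgeR adjusted p = 0.000204). Among the genes of this list with an ATP5 symbol, the largest fall was that of ATP5MC1 (−0.31, edgeR adjusted p = 0.000107). The import machinery that carries translocases and VDACs into the membranes had 4 of 18 higher and 9 lower, with a median of −0.07. TOMM40, the pore of the outer membrane translocase, fell from 96.5 ± 1.87 to 38.2 ± 1.41 CPM (−1.33, edgeR adjusted p = 9.69e-13), and TIMM10B, a small chaperone of the intermembrane space, rose (0.46, edgeR adjusted p = 2.28e-07).

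Kinases and partners of VDAC and the translocases had 4 of 9 higher and 3 lower, with a median of 0.1. Among all genes tested, 27.4% were called higher and 29.2% lower. PPIF, the matrix cyclophilin known as a regulator of the permeability transition, fell from 112 ± 4.31 to 53.5 ± 0.733 CPM (−1.07, edgeR adjusted p = 5.69e-12). The mitochondrial creatine kinase CKMT1A rose from 21.2 ± 0.872 to 52.4 ± 1.17 CPM (1.30, edgeR adjusted p = 9.17e-12), a value that is uncertain as to the copy since CKMT1B is nearly identical. CKMT1B (1.27) is also among the 4 called higher, so the same signal may be counted more than once. Of the 7 genes of the calcium uniporter complex 1 rose and 4 fell, among them the pore subunit MCU (−0.32, edgeR adjusted p = 7.04e-06). Over the 5 lists, 19 genes were called higher and 41 lower after the siRNA with the main scaling. These counts were 31 and 32 with the upper quartile and 31 and 35 with total counts.

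After ML60218, 17 of 18 ATP synthase subunits tested fell and 0 rose, with a median of −0.26 against 0.006 for all genes, of which 18.1% rose and 20.9% fell. These calls are from the main fit and depended on the scaling. Over all 5 lists, 40 genes were called lower in that fit, 26 with total counts and 16 on the TPM scale. The 17 ATP synthase calls therefore did not all hold on the TPM scale. ATP5MC1, a subunit of the membrane ring, fell from 94.3 ± 2.38 to 59.2 ± 10.1 CPM (−0.67, edgeR adjusted p = 0.00987). Of 18 import genes 12 fell and 1 rose, with a median of −0.19. TOMM6, a small subunit of the outer membrane translocase, fell from 131 ± 0.950 to 85.7 ± 11.0 CPM (−0.62, edgeR adjusted p = 0.00227), and TIMM9, a small chaperone of the intermembrane space, rose (0.20, edgeR adjusted p = 0.013).

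The other SLC25 carriers were more evenly divided, with 7 of 42 higher and 9 lower after ML60218 and a median of 0.01. Among all genes tested, 18.1% were called higher and 20.9% lower. SLC25A44, a carrier of branched-chain amino acids, fell (−0.58, edgeR adjusted p = 9.24e-05) and SLC25A29, a carrier of basic amino acids, rose (0.55, edgeR adjusted p = 0.00159). Of the kinases and partners 1 of 9 rose, HK2, a hexokinase that binds VDAC (0.23, edgeR adjusted p = 0.0036), and 2 fell, among them PPIF (−0.49, edgeR adjusted p = 9.24e-05). Of the calcium uniporter complex 1 of 7 rose, MICU3 (0.30, edgeR adjusted p = 0.025), and 0 fell. Over the 5 lists, 40 genes were called lower after ML60218 with the main scaling, 26 with total counts and 16 on the TPM scale.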

How the data were processed

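RNA of 12 HEK293T libraries in 4 groups of 3 was sequenced after a stranded mRNA kit, per the labels' protocols. The authors deposited 1 table with an estimated read count (expected counts) and a TPM for each of 194142 transcripts, per the file headers. The submitters' processing notes name bcl2fastq 2.20, Trim Galore, DESeq2 and hg38, and the quantifier and annotation are not given in the sources used here. Transcripts were matched by identifier to GENCODE release 29 (81.6%, 34318 genes), which left out 8.37% to 8.97% of reads. Unmatched transcripts have no gene by this rule, so transcripts of the 7 genes may be among them. The estimated counts of a gene's transcripts were added and rounded to whole numbers. The siRNA and inhibitor libraries were fitted separately, using edgeR 4.0.16 (R 4.3.3; filterByExpr with a minimum count of 10, TMM, robust quasi-likelihood test, Benjamini-Hochberg over all genes tested, threshold 0.05), and the script was tested on simulated data. CPM are TMM-scaled, with a prior count of 2 on the log2 scale. TPM were summed per gene and are relative to all RNA in a library, so an RNA that takes more of the library lowers the rest. limma 3.58.1 was used on log2(TPM + 1) and log2(TPM + 0.1), DESeq2 1.42.0 as another tool, and mgcv 1.9.3 for trends in GC and length.

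The members and lists were chosen with earlier results of these data known. Named genes were the 7 members, the 5 protein-coding genes most like SLC25A6 whose mean log2 CPM reached 3 and, per list and comparison, the called gene with the largest rise and the one with the largest fall at that level. The lists were other SLC25 carriers, ATP synthase subunits, import of carriers and VDACs, kinases and partners, and the calcium uniporter complex. Alternatives were 3 scalings, no low filter, DESeq2, 1 fit of all 12 libraries, a replicate block, each library left out, neighbouring unmatched transcripts added, an isoform length offset, removal of a GC and length trend, TPM with limma and pseudogene reads added. No library pair agreed within sampling noise (chi-square per degree of freedom from 4.16 to 21.7). Protein sequences were not used here.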

Additional observations from a re-analysis of the deposited data

How the results depend on the processing

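Over 19 alternatives, SLC25A6 in siPOLR3A stayed between −1.96 and −1.71 on the log2 scale, and SLC25A3 changed sign around 0 (−0.03 to 0.04). After ML60218, 7 of the 7 members were called, all lower, in the main fit, against 3 when libraries were scaled by the upper quartile, 3 by total counts, and 1 (VDAC3) with limma on either TPM scale, and 3 to 7 when 1 library was left out. With limma on both TPM scales SLC25A5, SLC25A6 and VDAC2 stood at 0.01 and SLC25A3 at 0.08. These scalings moved the median of all genes from 0.005 to 0.045 (upper quartile), 0.076 (total counts), 0.107 and 0.139 (TPM), and the share of calls that were higher from 46.4% to 58.6%, 67.0%, 82.2% and 82.5%. Removing the GC and length trend moved them to −0.039 and 33.4%. After the siRNA that share was 48.4%, 58.7% (upper quartile) and 57.0% (total counts). Genes of the 5 lists called higher after the siRNA went from 19 to 31 by the upper quartile and to 31 by total counts. Those called lower after the siRNA went from 41 to 32 and 35. Those called lower after ML60218 went from 40 to 26 with total counts and 16 on both TPM scales. The cause was not tested. Genes called ranged from 7997 to 8361 (siRNA) and from 4159 to 6501 (ML60218) with 1 library left out.

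Same-numbered libraries did not deviate together (correlations −0.022, 0.074 and −0.072 in the siRNA experiment and 0.007, 0.059 and −0.043 in the inhibitor experiment), so the numbers were not taken as pairs. With a replicate block 8493 and 5393 genes were called, and of the 7 members 6 were called after ML60218, SLC25A3 at −0.09 (edgeR adjusted p = 0.0617) not being among them. Every member had at least 978 estimated reads in each library, so read depth limits the single transcripts, such as SLC25A6-202, more than the gene sums.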
